A study of Mus musculus with 6 samples.

Results

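The promyelocytic leukaemia zinc finger gene Zbtb16, which encodes PLZF, the 4 spalt-like genes Sall1, Sall2, Sall3 and Sall4, and the zinc finger gene Zfp462 were followed in sorted mouse spermatogonia. The 6 genes were taken by symbol from the deposited expression table, where each had 1 entry among 31918 genes. RNA was sequenced from germ cells of the testis at postnatal day 8, and all libraries came from pups of the Id4-eGfp (LT11) line, in which green fluorescent protein reports on the Id4 gene. The Bright group (3 libraries) is labelled high for Id4 expression and the Dim group (3 libraries) low, so both groups carry the transgene and a group without it was not analysed here. Whether the libraries within a group derive from different animals is not stated in the labels. The p-values thus reflect the spread between these libraries alone, and that spread may be technical.

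PLZF belongs to the BTB zinc finger proteins, which pair through their BTB domain, bind DNA through their zinc fingers and recruit corepressor complexes. In the mouse testis it marks undifferentiated spermatogonia and is required for the germline to renew itself. SALL proteins are zinc finger factors that recruit the NuRD deacetylase complex, and SALL4 binds PLZF in mouse spermatogonia. ZFP462 is a zinc finger protein that, in mouse embryonic stem cells, works with the histone methyltransferases G9a and GLP.

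Values are FPKM, fragments scaled to transcript length and library size, so levels may be compared between genes. Depths estimated from the smallest steps of the table were roughly 22400000 to 36300000 reads per library. The reporter's own gene, Id4, ranged from 28.5 to 42.7 FPKM in Bright and from 3.75 to 5.39 in Dim. The germ cell markers Ddx4, Dazl, Tex101, Dppa3 and Nanos3 summed to 808 to 961 FPKM in Bright and 989 to 1070.0 in Dim. These markers did not move together. Dazl was at 438 to 505 FPKM in Bright and 571 to 670 in Dim, and Dppa3 at 0.511 to 1.625 and 5.123 to 7.944. Nanos3 was higher in Bright, at 23.7 to 33.1 FPKM against 9.96 to 19.5 in Dim. Ddx4 (247 to 284 in Bright, 203 to 250 in Dim) and Tex101 (90.8 to 137 and 126 to 189) overlapped. Bright 3 stood apart from the other libraries. Its 6 Leydig cell markers summed to 1747 FPKM against 1.65 to 2.56 elsewhere, its 7 Sertoli markers to 71.4 against 4.37 to 9.17, its 5 peritubular myoid markers to 81.2 against 3.37 to 5.66, and its 5 stromal markers to 201 against 24.7 to 36.2. The 5 endothelial markers summed to 18.8 FPKM in Bright 3, 8.01 and 6.47 in the other Bright libraries and 2.48 to 2.87 in Dim, and the 4 erythroid markers to 17.6 FPKM in Bright 3 and 0.778 to 9.42 elsewhere. The 6 macrophage markers were at 109 FPKM in Bright 3, 39.5 in Dim 1 and 44.0 in Dim 2, against 2.58 to 3.11 in the remaining libraries. No marker was at 0 in all libraries. Fold changes and calls of the tested members, and the ratio of means of Sall2, are given with and without Bright 3.

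Every Bright library was above every Dim library for each of the 6 genes. The same order was seen in 20.4% of the 13416 genes tested, which are those with at least 1 FPKM in at least 3 libraries. Zbtb16, Sall4, Zfp462 and Sall1 were above 1 FPKM in all 6 libraries and were called higher in Bright (limma on log2(FPKM + 1), Benjamini-Hochberg adjusted p under 0.05), as were 12.0% of the genes tested. Sall3 was also called, but it entered the test only through its Bright libraries, since it was below 1 FPKM in every Dim library. Sall2 was below 1 FPKM throughout and was not tested. In bulk RNA, fewer cells with a transcript and less of it per cell cannot be told apart.

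**Figure D1:**
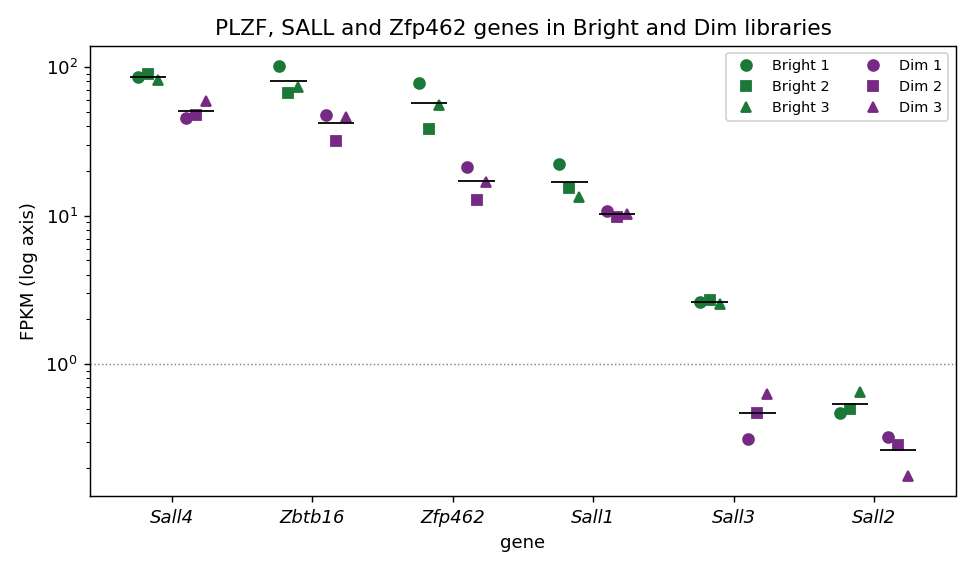
FPKM on a log axis of the 6 genes in the 3 Bright (green) and 3 Dim (purple) libraries, with the replicate number given by the symbol, the group mean by a bar and 1 FPKM by the dotted line. Within each gene all Bright symbols lie above all Dim symbols, and Sall3 crosses the line at 1 FPKM between the groups.

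Zbtb16 (ENSMUSG00000066687, chromosome 9, 48654311 to 48835945, minus strand) stood at 101, 66.5 and 73.5 FPKM in Bright libraries 1 to 3, against 47.9, 31.7 and 45.8 FPKM in Dim 1 to 3. The groups did not overlap, and the lowest Bright library was 1.39 times the highest Dim library. The mean was 80.2 ± 18.1 FPKM over Bright and 41.8 ± 8.83 over Dim (SD, n = 3 each), a ratio of 1.92. The log2 fold change amounted to 0.92 ± 0.21 SE, with a 95% interval of 0.45 to 1.40 (limma adjusted p = 0.0150). Across the genes tested, 6.5% had a larger log2 fold change. The call held without Bright 3 (log2 fold change 0.98, limma adjusted p = 0.0389, where 10.6% of genes were called higher in Bright) and with any other single library left out, where the adjusted p reached 0.0431 without Bright 1. It was lost by a narrow margin when genes with low values were kept in the test (limma adjusted p = 0.0513).

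Zbtb16 stood near the top of its own family as listed here. The list took every symbol of Zbtb with a number and at most 1 letter, plus Bcl6, Bcl6b, Patz1 and Hic1. BTB zinc finger genes with other symbols were not looked up, so ranks and shares hold for this list only. It held 44 genes including Zbtb16, which ranked at position 2 by mean level over the 6 libraries, at 61.0 FPKM. Patz1, a BTB factor with an AT-hook, was higher at 65.1 FPKM, and Zbtb44 followed at 53.6. The rank differed between the groups. In Bright Zbtb16 was at position 1, ahead of Patz1 at 70.7 ± 10.7 FPKM (SD, n = 3), and it was also at position 1 there without Bright 3. In Dim it was at position 4, after Patz1 at 59.6 ± 2.38, Zbtb44 at 50.4 ± 8.60 and Zbtb32 at 44.1 ± 8.26. The ranges of Zbtb16 and Patz1 overlapped in Bright and did not overlap in Dim. Of the other 43 family members 40 were tested, and 1 passed in each direction, which is 5.00% of them against 22.5% of all genes tested (12.0% higher in Bright and 10.5% higher in Dim). At an unadjusted p under 0.05 there were 3 of these 40 in each direction. Across all 13416 genes tested, the same cut was met by 2380 genes with the Bright side up and 2370 with the Dim side up. The family's median log2 fold change was -0.05, beside -0.03 for all genes tested. The member higher in Bright was Bcl6b, which encodes a repressor related to BCL6 and needed for stem cell maintenance, at 58.6, 65.6 and 49.5 FPKM across the Bright libraries, against 4.97, 6.71 and 6.68 across the Dim libraries (log2 fold change 3.05 ± 0.16 SE, limma adjusted p = 3.15e-05). The member higher in Dim was Zbtb12, at 8.55, 9.25 and 8.63 FPKM across the Bright libraries, against 18.5, 21.2 and 17.3 across the Dim libraries (log2 fold change -1.02 ± 0.14 SE, limma adjusted p = 0.00144). Both calls held with each library left out in turn. By log2 fold change Zbtb16 ranked at position 2 of the 41 tested, after Bcl6b.

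Sall4 (ENSMUSG00000027547, chromosome 2, 168748332 to 168767943, minus strand) was the most abundant SALL transcript, at 86.1, 90.2 and 81.4 FPKM in Bright libraries 1 to 3, against 45.3, 47.4 and 59.0 FPKM in Dim 1 to 3. The Bright libraries lay close together, with a coefficient of variation of 5.13% against 22.5% for Zbtb16 in the same libraries. The mean was 85.9 ± 4.41 FPKM over Bright and 50.6 ± 7.34 over Dim (SD, n = 3 each), a ratio of 1.70. The log2 fold change amounted to 0.76 ± 0.14 SE, with a 95% interval of 0.43 to 1.09 (limma adjusted p = 0.00673). It was 0.80 without Bright 3 (limma adjusted p = 0.0162). The annotation places the processed transcript Gm14261 on the opposite strand, where 526 exonic bases overlap those of Sall4. Whether counting used strand is not given in the sources used here, so reads in this stretch cannot be assigned. Gm14261 was listed at 0.651 to 2.32 FPKM over the 6 libraries, far below Sall4.

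Sall1 (ENSMUSG00000031665, chromosome 8, 89027248 to 89044162, minus strand), a spalt-like factor known from kidney development, stood at 22.2, 15.3 and 13.3 FPKM in Bright libraries 1 to 3, against 10.7, 9.73 and 10.2 FPKM in Dim 1 to 3. Bright 1 was the highest library and Bright 3 lay nearest to Dim. The Dim libraries were tight, with a coefficient of variation of 4.56% against 27.7% in Bright. The mean was 16.9 ± 4.68 FPKM over Bright and 10.2 ± 0.465 over Dim (SD, n = 3 each), a ratio of 1.66. The log2 fold change amounted to 0.65 ± 0.19 SE, with a 95% interval of 0.22 to 1.08 (limma adjusted p = 0.0402). This call was the least stable of the set. It held without Bright 3, where the log2 fold change was 0.80 (limma adjusted p = 0.0279). Leaving out Bright 1, Bright 2, Dim 1, Dim 2 or Dim 3 ended it (limma adjusted p = 0.0978, 0.0560, 0.0566, 0.0973 and 0.110). It was also lost with no filter on low values (0.0940) and after quantile normalization (0.0540).

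Promoter sequence from RefSeq on GRCm38.p6 was matched for 2 of the 6 genes, Sall1 and Sall2. The Sall1 entry holds 3 start sites, each with a window of 300 bases on the minus strand. The windows of 2 of these starts are printed because Sall1 is the called gene with a matched sequence. The first window, chr8:89044113-89044412, surrounds the start at 89044162, which is also the end of the deposited Sall1 gene model. The other, chr8:89043463-89043762, surrounds the start at 89043512. Capitals mark the GC box on either strand, with the letters GGGCGG, which is the site of SP1-type zinc finger proteins.
Sall1 start at 89044162: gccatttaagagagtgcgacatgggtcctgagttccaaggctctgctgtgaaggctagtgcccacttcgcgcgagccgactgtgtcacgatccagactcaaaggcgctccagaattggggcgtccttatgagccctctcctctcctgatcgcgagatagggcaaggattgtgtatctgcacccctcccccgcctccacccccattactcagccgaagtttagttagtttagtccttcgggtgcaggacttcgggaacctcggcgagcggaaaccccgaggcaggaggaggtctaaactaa
Sall1 start at 89043512: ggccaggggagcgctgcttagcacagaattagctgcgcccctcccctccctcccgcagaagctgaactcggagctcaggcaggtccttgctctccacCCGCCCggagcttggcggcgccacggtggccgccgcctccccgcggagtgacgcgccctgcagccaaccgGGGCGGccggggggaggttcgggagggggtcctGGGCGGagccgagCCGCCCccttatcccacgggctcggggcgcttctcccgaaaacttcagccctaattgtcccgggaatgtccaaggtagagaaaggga
The window at 89043512 held 4 GC boxes and the one at 89044162 held 0. A GC box was found in 2 of the 3 Sall1 windows and in 35.7% of the 32851 promoter windows of the table. E-boxes, the sites of helix-loop-helix factors, only some of which ID proteins inhibit, were searched on both strands in 3 forms. None of these forms has the letters of the GC box, although matches may share end bases with one. The form CAGGTG was in 0 of the 3 Sall1 windows and in 20.2% of all windows. The palindrome CAGCTG was likewise in 0 of the 3 Sall1 windows and in 16.3% of all windows. For the palindrome CACGTG these values were 0 of 3 and 7.15%. Of the 2 Sall2 windows, 1 held the form CAGGTG on the opposite strand, and 0 held either palindrome or the GC box.

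Sall3 (ENSMUSG00000024565, chromosome 18) was a low transcript with the largest ratio between groups among the SALL genes. It stood at 2.61, 2.70 and 2.52 FPKM in Bright libraries 1 to 3, against 0.314, 0.465 and 0.626 FPKM in Dim 1 to 3. The lowest Bright library was 4.02 times the highest Dim library, and the Bright values were tighter than those of the other members, with a coefficient of variation of 3.60%. From the estimated depths and the longest annotated transcript, these values stand on roughly 410 to 650 reads per library in Bright and 61 to 150 in Dim. The mean was 2.61 ± 0.0940 FPKM over Bright and 0.468 ± 0.156 over Dim (SD, n = 3 each), a ratio of 5.57. On log2(FPKM + 1), which understates changes of low genes, the fold change amounted to 1.30 ± 0.15 SE, with a 95% interval of 0.97 to 1.64 (limma adjusted p = 0.000730). With a pseudocount of 0.1 it was 2.29. The call held in the test of all genes above 0, where Sall3 did not need to pass a filter (limma adjusted p = 0.00435, with 5.18% of 25647 genes called higher in Bright). It also held without Bright 3 (log2 fold change 1.32, limma adjusted p = 0.00357).

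Sall2 (ENSMUSG00000049532, chromosome 14, 52311172 to 52328762, minus strand), a family member known from neural tissue, was the lowest of the 6. It stood at 0.466, 0.499 and 0.644 FPKM in Bright libraries 1 to 3, against 0.323, 0.285 and 0.177 FPKM in Dim 1 to 3. Its highest value came from Bright 3, which also carried the somatic markers, and the other Bright libraries also lay above all of Dim. These values stand on roughly 54 to 120 reads per library in Bright and 32 to 48 in Dim. The mean was 0.536 ± 0.0948 FPKM over Bright and 0.262 ± 0.0760 over Dim (SD, n = 3 each), a ratio of 2.05. In the test of all genes above 0 the log2 fold change was 0.28 ± 0.10 SE and did not pass (limma adjusted p = 0.135). Without Bright 3 the ratio of means was 1.84.

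Zfp462 (ENSMUSG00000060206, chromosome 4, 54945048 to 55083563, plus strand) had the largest log2 fold change of the set on log2(FPKM + 1), though not on scales that weigh low values more. With a pseudocount of 0.1 it was at 1.72 against 2.29 for Sall3, and with 0.5 both were at 1.70. It stood at 78.5, 38.2 and 55.5 FPKM in Bright libraries 1 to 3, against 21.3, 12.7 and 16.9 FPKM in Dim 1 to 3. Its Bright libraries were the most spread of the 6 genes, with a coefficient of variation of 35.2%, yet the lowest of them was 1.80 times the highest Dim library. The mean was 57.4 ± 20.2 FPKM over Bright and 17.0 ± 4.27 over Dim (SD, n = 3 each), a ratio of 3.38. The log2 fold change amounted to 1.67 ± 0.27 SE, with a 95% interval of 1.04 to 2.30 (limma adjusted p = 0.00417). Only 1.2% of the genes tested had a larger log2 fold change. The call held without Bright 3 (1.66, limma adjusted p = 0.0187) and with each other library left out. In 6.98% of all genes tested the call of higher in Bright likewise held with each library left out, and Zbtb16, Sall3 and Sall4 shared this property while Sall1 did not.

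Levels fell in the same order of group means in Bright and Dim, namely Sall4, Zbtb16, Zfp462, Sall1, Sall3 and Sall2. The order in Bright was the same without Bright 3. The ranges of Sall4 and Zbtb16 overlapped in both groups, and within a library Sall4 was the higher of these neighbours in 2 of 3 Bright and 2 of 3 Dim libraries. The ranges of Zbtb16 and Zfp462 overlapped in Bright but not in Dim, and within a library Zbtb16 was the higher in 3 of 3 of each group. In Dim the ranges of Sall3 and Sall2 overlapped, with Sall3 the higher in 2 of 3 libraries. Summed over the 4 SALL genes, transcripts amounted to 111, 109 and 97.8 FPKM across the Bright libraries, against 56.6, 57.9 and 70.0 across the Dim libraries. Sall4 made up 77.3% to 83.2% of this sum in Bright and 80.1% to 84.2% in Dim, and the groups overlapped. The share of Sall3 was 2.34% to 2.57% in Bright and 0.555% to 0.895% in Dim, without overlap. Without Bright 3 the Bright share of Sall3 was 2.34% to 2.49%.

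The difference between libraries of the same replicate number was positive for every gene and every number, although nothing in the labels says that a number marks shared animals. On log2(FPKM + 1), Zfp462 differed by 1.84, 1.52 and 1.66 between Bright and Dim libraries 1, 2 and 3. Zbtb16 differed by 1.06, 1.05 and 0.67, Sall4 by 0.91, 0.91 and 0.46, Sall1 by 0.99, 0.61 and 0.34, and Sall3 by 1.46, 1.34 and 1.11. The difference of number 3 was the smallest for Zbtb16, Sall4, Sall1 and Sall3, but not for Zfp462 or Sall2. Zbtb16 and Zfp462 were highest in library 1 and lowest in library 2 in both groups.

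**Figure D2:**
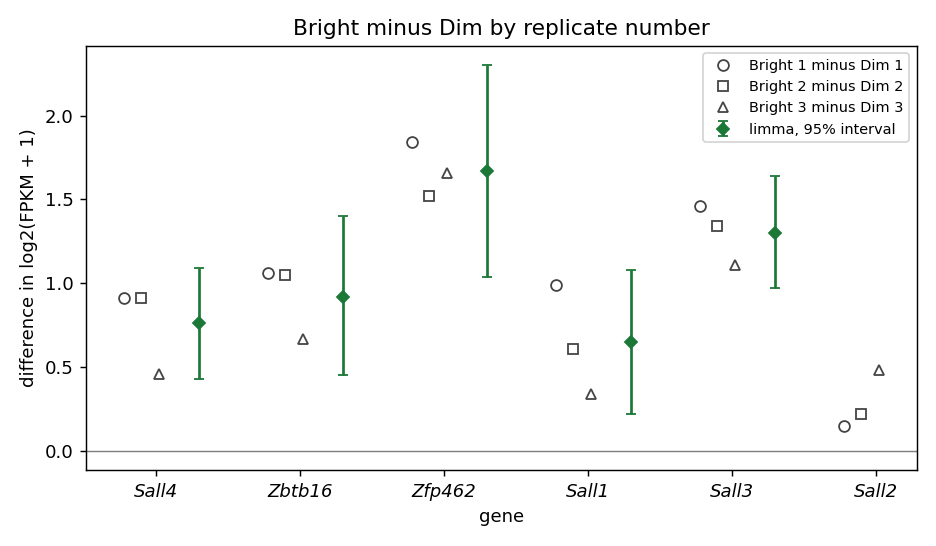
Difference in log2(FPKM + 1) between the Bright and Dim library of the same replicate number (open symbols) and the limma log2 fold change with its 95% interval (green diamonds) for each gene. All symbols lie above 0, and Sall2, which was not tested, has no diamond.

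Whether the members changed to the same extent was examined through the ratio of their FPKM within each library, which does not depend on library size. The ratio of Sall4 to Zbtb16, the transcripts of interacting proteins, was 0.856, 1.36 and 1.11 in Bright libraries 1 to 3, against 0.946, 1.5 and 1.29 in Dim 1 to 3. The groups overlapped, with means of 1.11 ± 0.250 and 1.24 ± 0.278 (SD, n = 3 each, exact two-sided permutation p = 0.600). The ratio of Sall4 to Sall1 overlapped as well (5.30 ± 1.24 and 4.96 ± 0.757, exact two-sided permutation p = 0.700). Sall4 was 32.4 to 33.4 times Sall3 in Bright and 94.1 to 144 times in Dim. Zbtb16 was 1.28 to 1.74 times Zfp462 in Bright and 2.26 to 2.70 times in Dim. Neither of these last 2 ratios overlapped between groups. Of the 15 ratios among the 6 genes, 6 did not overlap, each with an exact two-sided permutation p = 0.1, the smallest that 20 arrangements allow, and 0.250 after adjustment over the 15. Each of these 6 ratios contains Sall3 or Zfp462, the members with the largest fold changes, so they are not separate observations. In Dim, Sall3/Sall2 is a ratio of values below 1 FPKM. The share of ratios without overlap among pairs of other genes was not computed, so this count cannot be called particular to these genes. Without Bright 3 the count was also 6, but it could not have fallen, since groups that are apart stay apart when a library is removed.

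**Figure D3:**
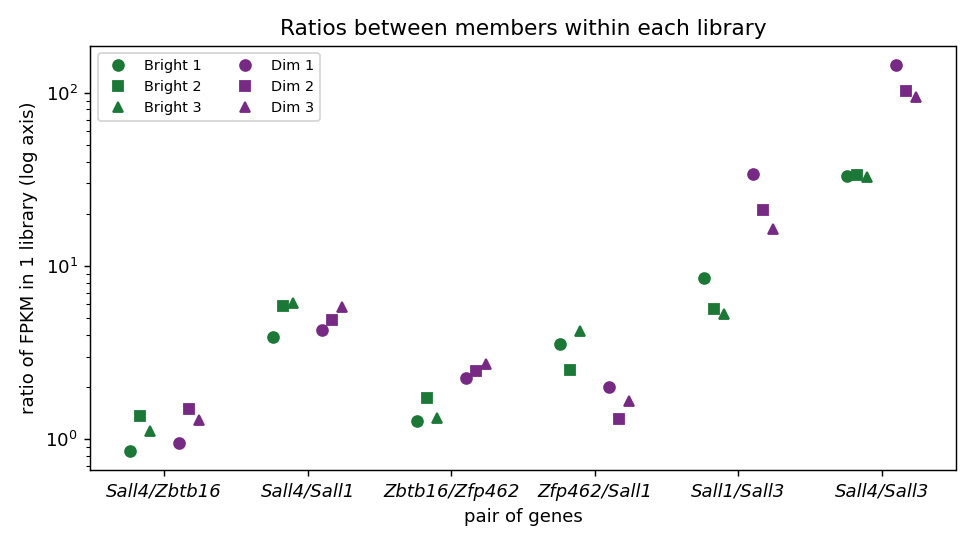
Ratio of FPKM between 2 genes within each library on a log axis, for 6 of the 15 pairs, in Bright (green) and Dim (purple). The ratios Sall4/Zbtb16 and Sall4/Sall1 overlap between groups, and Zbtb16/Zfp462, Zfp462/Sall1, Sall1/Sall3 and Sall4/Sall3 do not.

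The authors' deposited table of Bright against Dim gave the same direction for each gene. In the authors' deposited table the log2 ratio was 0.90 for Zbtb16 (q = 0.000921), 0.75 for Sall4 (q = 0.0158), 0.68 for Sall1 (q = 0.0116), 2.43 for Sall3 (q = 0.000921), 1.67 for Zfp462 (q = 0.000921) and 0.99 for Sall2 (q = 0.236). A q under 0.05 with a positive ratio was listed there for 8.77% of the genes tested here. In the authors' deposited tables of single pairs, the lowest q of a member was 0.241, for Zfp462 in Bright 2 against Dim 2. Those tables compare 1 library with 1 library.

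Genes linked to PLZF or SALL4 in mouse spermatogonia did not move as 1 group. Of 10 listed, all tested, 3 were higher in Bright, 1 was higher in Dim and 6 did not pass, with a median log2 fold change of 0.02 beside -0.03 for all genes. Those called make up 40.0% of the list, against 22.5% of all genes tested. With 10 genes, chosen with earlier results of these data known, the list is too short to set these shares apart. Kit, the stem cell factor receptor that PLZF represses in mouse spermatogonia, measured 30.5, 17.2 and 23.9 FPKM across the Bright libraries, against 116, 93.8 and 102 across the Dim libraries (log2 fold change -2.11 ± 0.20 SE, limma adjusted p = 0.000394). Ddit4, an inhibitor of mTORC1 signalling that PLZF activates in mouse spermatogonial progenitors, measured 29.2, 27.8 and 26.1 FPKM across the Bright libraries, against 24.5, 30.1 and 25 across the Dim libraries. Its groups overlapped (log2 fold change 0.07 ± 0.13 SE, limma adjusted p = 0.761).

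The members of this list higher in Bright were Gfra1, the GDNF co-receptor, Etv5, an ETS factor induced by GDNF, and Pou5f1, which encodes OCT4. Their log2 fold changes were 3.87 ± 0.22 SE, 3.63 ± 0.18 SE and 1.31 ± 0.22 SE. The limma adjusted p was 4.66e-05 for Gfra1, 2.82e-05 for Etv5 and 0.00376 for Pou5f1, and each call held with every library left out in turn. Among the 6 that did not pass, Dmrt1, a sex-determination factor that also acts in spermatogonia, averaged 207 ± 27.0 FPKM over Bright and 284 ± 19.7 in Dim (SD, n = 3 each, limma adjusted p = 0.0798). Foxo1, a forkhead factor of stem cell maintenance, was at 34.7 ± 7.39 and 28.8 ± 3.66 FPKM (limma adjusted p = 0.363). The RNA-binding protein gene Lin28a was at 84.7 ± 14.9 and 85.4 ± 8.90 FPKM (limma adjusted p = 0.939). Utf1 was at 4.30 ± 0.686 and 5.36 ± 1.34 FPKM and Sohlh1, a differentiation factor, at 122 ± 27.9 and 154 ± 29.4 (limma adjusted p = 0.402 and 0.285).

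The corepressors that PLZF can recruit were mixed. Of 10 listed 9 were tested, and 1 was called in each direction, which is 22.2% of them beside 22.5% of all genes. Their median log2 fold change was -0.15. The gene higher in Dim was Hdac3, a histone deacetylase, at 59.3, 68.0 and 55.6 FPKM against 40.6, 48.0 and 44.6 in Bright (log2 fold change -0.45 ± 0.14 SE, limma adjusted p = 0.0467). Leaving out any library ended the Hdac3 call, whether Bright 1, Bright 2, Bright 3, Dim 1, Dim 2 or Dim 3 (limma adjusted p = 0.143, 0.0544, 0.0810, 0.0896, 0.172 and 0.0901).

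Subunits of NuRD, the complex that SALL proteins recruit, were mixed too. All 14 were tested, 2 were higher in Bright and 2 in Dim (28.6% called beside 22.5%), and the median log2 fold change was -0.20. With 14 genes the list is too short to set these shares apart. Mta1 was at 27.9, 25.6 and 21.4 FPKM across the Bright libraries, against 49.4, 51.5 and 43.2 across the Dim libraries (log2 fold change -0.92 ± 0.14 SE, limma adjusted p = 0.00294), and its call held with each library left out. Chd4, the remodelling ATPase of the complex, was at 252, 227 and 226 FPKM across the Bright libraries, against 172, 145 and 146 across the Dim libraries (log2 fold change 0.61 ± 0.15 SE, limma adjusted p = 0.0213). Leaving out Bright 1, Dim 2 or Dim 3 ended the Chd4 call (limma adjusted p = 0.0789, 0.0883 and 0.104). Mbd2, a reader of DNA methylation, was higher in Bright (0.54 ± 0.15 SE, limma adjusted p = 0.0334) and the histone chaperone gene Rbbp4 higher in Dim (-0.46 ± 0.13 SE, limma adjusted p = 0.0351). The Mbd2 call held only without Bright 1, with 0.0629 without Bright 3 and 0.0910, 0.0924, 0.0614 and 0.0915 without Bright 2, Dim 1, Dim 2 and Dim 3. The Rbbp4 call was lost with any library left out (0.0883, 0.0540 and 0.0697 without Bright 1, 2 and 3, and 0.102, 0.0725 and 0.144 without Dim 1, 2 and 3). The list therefore had 1 or 2 called members with any library left out.

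Of the 8 partners of ZFP462, all tested, 1 was higher in Bright and 2 higher in Dim (37.5% called beside 22.5%), with a median log2 fold change of -0.31. This list of 8 genes is also too short to set these shares apart. Cbx1, a heterochromatin protein, was at 43.2, 45.7 and 41.3 FPKM across the Bright libraries, against 78.0, 73.8 and 71.7 across the Dim libraries (log2 fold change -0.77 ± 0.12 SE, limma adjusted p = 0.00306), a call that held with each library left out. Wiz, a zinc finger subunit of the G9a and GLP complex, was higher in Dim as well, at 33.2, 25.1 and 22.7 FPKM against 47.7, 41.2 and 37.8 (log2 fold change -0.64 ± 0.17 SE, limma adjusted p = 0.0287). The Wiz call ended on leaving out Bright 2, Bright 3, Dim 1, Dim 2 or Dim 3 (0.0647, 0.0802, 0.0726, 0.0607 and 0.0558). Only 1 member of this list, higher in Dim, was called without Bright 3.

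Cereblon is the substrate receptor of the ubiquitin ligase that degrades human SALL4 and PLZF in the presence of thalidomide. Of its 6 subunits, all tested, 0 were called in either direction by limma, beside 22.5% of all genes tested. A list of 6 genes is too short to set 0 calls apart from that share. At an unadjusted p under 0.05, 0 were higher in Bright and 1 was higher in Dim. Over all 13416 genes tested these numbers were 2380 and 2370. The median log2 fold change was -0.10, beside -0.03 for all genes. Ddb1 was at 154 ± 12.4 FPKM in Bright against 171 ± 15 in Dim, and Cul4b at 95.7 ± 12.7 and 86.1 ± 13.1 (SD, n = 3 each, limma adjusted p = 0.509 and 0.547).

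**Figure D4:**
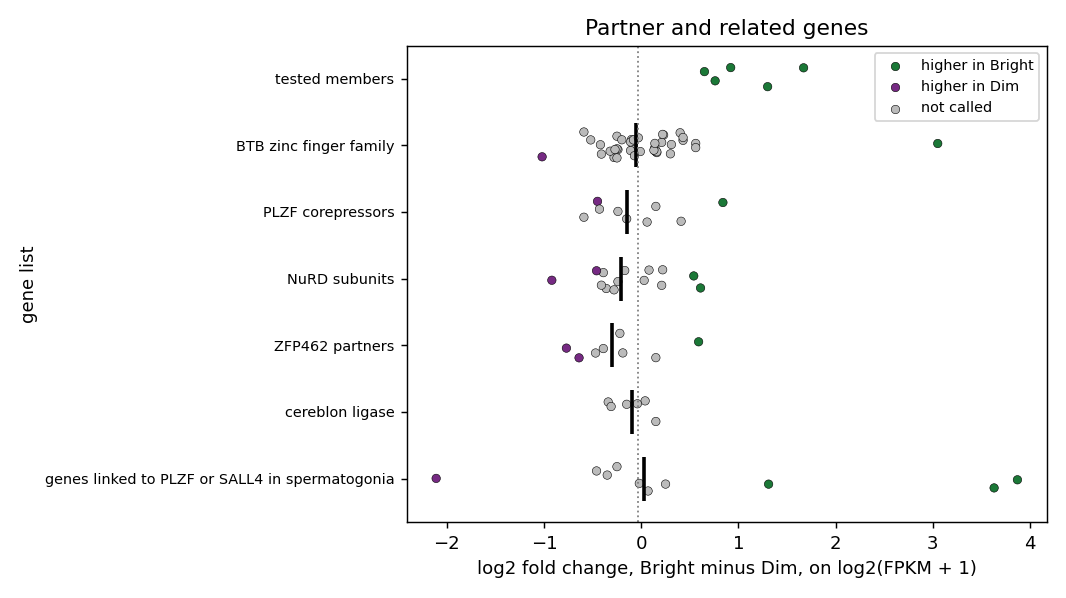
Log2 fold change (Bright minus Dim on log2(FPKM + 1)) of the tested members and of the 6 gene lists, coloured by call, with the median of each list as a bar and the median of all genes tested, -0.03, as a dotted line. The members all lie to the right of the line, and the lists lie on both sides of it.

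The genes whose profile over the 6 libraries was most like that of each member were found among 9032 named genes with a mean of at least 5 FPKM, by the root mean square difference of log2(FPKM + 1) after centring. For Zbtb16 these were Tns3, Pik3c2b and Ptpn3, at 0.064, 0.087 and 0.087. Tns3, a focal adhesion protein, measured 32.6, 21.2 and 26.5 FPKM across the Bright libraries, against 16.3, 10.9 and 15.3 across the Dim libraries. Library 1 was highest and library 2 lowest in both groups as for Zbtb16, an order that the choice by profile over these same libraries favours. For Sall4 they were Dlst, a subunit of the 2-oxoglutarate dehydrogenase complex, Grb7 and G6pc3, at 0.047, 0.051 and 0.055. For Sall1 they were Lhfpl2, Trim71 and Cd274, at 0.085, 0.090 and 0.099. For Sall3 they were Scamp5, Lrrc20 and Pygl, at 0.062, 0.063 and 0.066. The added 1 shrinks the profile of Sall3 but hardly those of genes above 5 FPKM, so these are alike on this scale only. The ratio of Bright to Dim means was 2.39 for Scamp5, 2.74 for Lrrc20 and 2.58 for Pygl, against 5.57 for Sall3. For Zfp462 they were Epg5, an autophagy gene, the histone methyltransferase gene Kmt2c and the cohesin loader gene Nipbl, at 0.134, 0.135 and 0.151. Of these 15 genes, 4 were again among the 3 most similar when Bright 3 was left out. Between members the closest pair was Zbtb16 and Sall1 at 0.229, and the most distant was Sall4 and Zfp462 at 0.604.

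**Figure D5:**
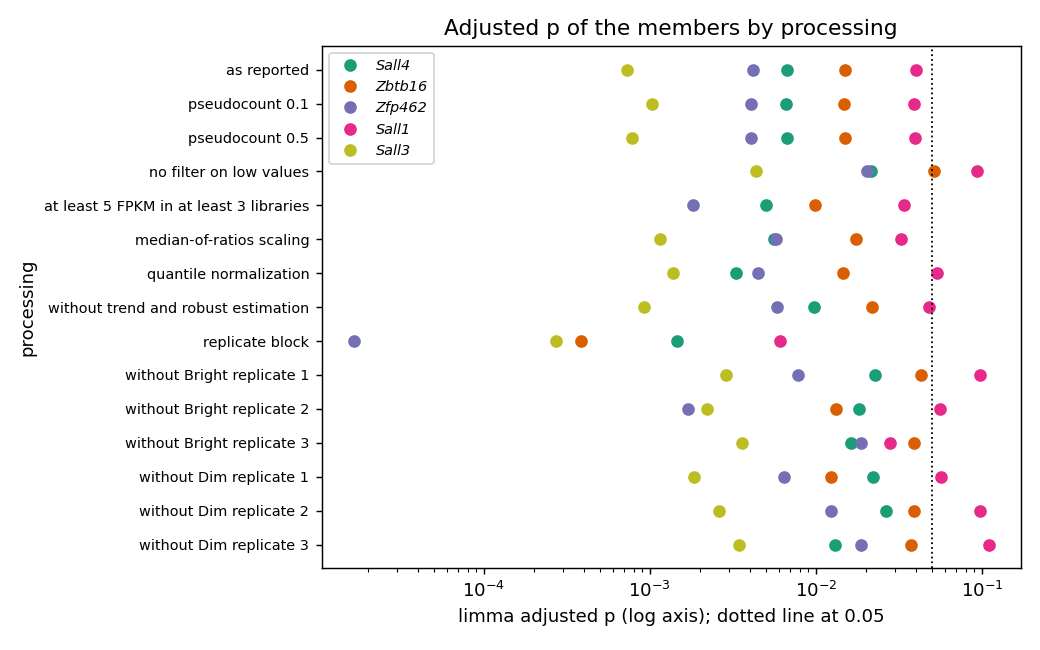
Limma adjusted p on a log axis of the 5 tested members as reported and under each of the 14 alternatives (1 row each), with 0.05 as the dotted line. Sall3, Sall4 and Zfp462 stay left of the line wherever they have a value, Zbtb16 crosses it once, and Sall1 crosses it in 7 rows.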

How the data were processed

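Total RNA was extracted with Trizol and cDNA was primed with oligo d(T), per the labels' protocols. The deposited table holds FPKM made by the authors. The submitters' processing notes list TopHat2 2.1.1, Cufflinks 2.2.1 and the genome build mm9. Of 31584 gene identifiers found in GENCODE M21, 81.0% had coordinates identical to GRCm38, so coordinates are given on GRCm38 as deposited. Those of Sall2, Sall4 and Zfp462 were identical, while Zbtb16 starts 14 bases later and ends 277 earlier than in M21, and Sall1 starts 13 later. Per the file headers, the deposited comparison tables hold the authors' log2 ratio, p-value and q-value of each gene, whose settings are not given in the sources used here. Of the per-sample columns 0 were left unused.

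The FPKM were not rescaled and entered as log2(FPKM + 1). The 13416 genes that reached 1 FPKM in 3 or more of the 6 libraries were fitted in limma 3.58.1 (R 4.3.3) with trend and robust estimation and with group as the sole term. Benjamini-Hochberg adjustment ran over all of them, with calls under 0.05. In a simulation of 13416 genes with 200 true changes between 3 and 3 libraries, 62% of changes of 1 and 86% of changes of 2 on the log2 scale were recovered. Its noise was drawn for both groups from the spread of the Dim libraries. These shares may therefore not hold for genes that spread differently in Bright. The simulation also changed far fewer genes than the 3016 called in the data, and the adjustment is stricter when fewer genes change. Recovery in the data may thus differ from these shares. Depths were estimated from the FPKM step of long genes with 1 transcript at up to 0.05 FPKM, and whole reads were not recovered, so no counting intervals are given.

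The members and the 6 lists were chosen with earlier results of these data known. From each list up to 4 called genes per direction were named, or the 2 highest where none was called, and all 10 of the genes linked to PLZF or SALL4. Bcl6b and Zbtb12 fall under this rule. Of the called genes of the lists, 2 are not reported here by name. For each tested member the 3 most similar profiles were named. Alternatives were 2 pseudocounts, 2 filters, 2 scalings, limma without trend and robust estimation, a replicate block and each library left out. Ratios, family ranks, level order, shares and profile likeness were recomputed without Bright 3, a choice made after seeing the data.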

Additional observations from a re-analysis of the deposited data

How the results depend on the processing

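Sall3, Sall4 and Zfp462 kept their direction and call in every alternative that gave a value, and all tested members kept their direction. Sall3 had no value at a minimum of 5 FPKM, and Sall2 had a test only without a filter (0.28). With no filter, Zbtb16 (0.92, limma adjusted p = 0.0513) and Sall1 (0.65, 0.0940) lost their calls, and the corepressor, NuRD and ZFP462 partner lists held 1, 2 and 1 called genes. After quantile normalization Sall1 was at 0.60 (0.0540). Without trend and robust estimation the corepressor list held 1. With a library left out, the log2 fold change ranged from 0.74 to 1.05 for Zbtb16, 0.45 to 0.80 for Sall1, 1.23 to 1.38 for Sall3, 0.69 to 0.87 for Sall4, 1.42 to 1.93 for Zfp462 and, untested, 0.23 to 0.32 for Sall2. All genes called then numbered 1957 to 2603 (3016 with all libraries), with 1095 to 1418 higher in Bright and 849 to 1225 higher in Dim, and the lowest totals came without Dim 2 (1957) and Dim 3 (1973). Called genes numbered 1 to 2 in the NuRD and corepressor lists, 1 to 4 among ZFP462 partners, 2 to 3 in the BTB family, 0 for cereblon and 4 among genes linked to PLZF or SALL4. The cause of these changes was not tested.

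Replicate numbers were not taken as pairs, since the labels name nothing that they share. The correlation across genes of deviations from the group means was 0.435, 0.511 and -0.194 for the same numbers 1, 2 and 3, and -0.603 to 0.18 between different numbers. Bright 3 carried the somatic markers, so the value for number 3 cannot show whether that number marks a pair. Of the 6 libraries, 4 correlated best with their own number, so pairing of some numbers was not settled. With the number as a replicate block, 5453 of the 13416 genes tested were called (2607 higher in Bright, 2846 in Dim), and all 5 tested members stayed called. Of the tested genes in the lists, 11 of 40 in the BTB family, 5 of 9 corepressors and 7 of 14 NuRD subunits were called. So were 4 of 8 ZFP462 partners, 2 of 6 cereblon subunits and 5 of 10 genes linked to PLZF or SALL4. Depth limits Sall2, and Sall3 in Dim, most.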
